A study of Mus musculus with 2 samples.

Results

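miR-143 and miR-145 are a pair of microRNAs (miRNAs) processed from neighbouring hairpins of 1 primary transcript, and they were followed here in small RNA libraries of cardiac mitochondria from mice. Their entries were found by name: any arm of miR-143, miR-145 or mouse miR-145a, under a human or a mouse prefix. This gave 5 of the 851 named entries. Of these, 4 carry human names in the files (hsa-miR-143-3p, hsa-miR-143-5p, hsa-miR-145-5p and hsa-miR-145-3p, below without the prefix) and 1 a mouse name (mmu-miR-145a-5p). The groups were 1 control library from mouse heart mitochondria and 1 library from heart mitochondria of mice given STZ (streptozotocin, which destroys pancreatic beta cells and is used to induce diabetes). Both are heart tissue of Mus musculus. The sources used here give neither the strain, age and sex of the mice nor the STZ dose, the time after it or the number of animals per library. The study concerns diabetic cardiomyopathy and set the mitochondrial miRNA profile of the STZ heart beside that of the control heart.

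Most miRNA hairpins are cut by Dicer into a 5p and a 3p strand. Usually one of these, the guide, is kept in an Argonaute protein while the other, the passenger, is lost. miR-143 and miR-145 are best known from smooth muscle, where serum response factor and myocardin drive their shared transcript. There they favour the contractile over the proliferative state, with Klf4, Klf5 and Elk1 among their known targets. In the heart the cluster is active in cardiac progenitors during development and afterwards mainly in the smooth muscle of coronary vessels and in pericytes. By the GENCODE M21 annotation of the mouse build GRCm38, Mir143 lies on chromosome 18 at 61649196 to 61649258 and Mir145a at 61647825 to 61647894, both on the minus strand, so that miR-143 comes first in the transcript. The hairpins are 1301 bases apart. GENCODE ends the long noncoding RNA Carmn 366 bases before Mir143, whereas RefSeq's annotation of the same build draws Carmn over both hairpins. The submitters' processing notes name GRCm39, in which positions differ, and the deposited files hold no coordinates.

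Assigned reads numbered 508182 for the control and 706860 for STZ. Levels are given in RPM, which puts both libraries on a common size, and since a small RNA read covers the whole miRNA they need no scaling by length. A single read was worth 1.97 RPM in the control and 1.41 RPM after STZ. With 1 library per group there was no replicate check, and "higher" and "lower" describe 2 libraries rather than 2 conditions. Since PCR copies without molecular identifiers do not count molecules independently, every 95% interval covers counting error alone. Reads were not calibrated against known amounts of RNA, so a ratio between different miRNAs is a ratio of reads. The labelled heart tissue was visible in the muscle miRNA miR-1-3p, the most abundant entry of both libraries. Nothing in the files allowed a check of how pure the mitochondrial fraction was, and miRNAs known from vessels and blood were present in both libraries. Liver miR-122-5p was present too, with 400 reads in the control and 52 after STZ, and where these reads came from was not tested.

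miR-143-3p, the guide strand of miR-143, was among the most abundant miRNAs of these mitochondrial preparations, and miR-145 from the same transcript was far scarcer. miR-143-3p had 30802 reads in the control and 35972 after STZ, or 60612 RPM (exact Poisson 95% interval 59937 to 61293) and 50890 RPM (50365 to 51419). Among named entries it ranked 4 by abundance in the control and 5 after STZ, and its level was lower there. The STZ to control ratio was 0.840, with an exact conditional binomial interval of 0.827 to 0.852 (n = 1 library each). By mean level its neighbours above were miR-1-3p and miR-133a-3p, which restrain growth genes in cardiomyocytes, and miR-30a-5p. Those below were miR-30d-5p, endothelial miR-126-3p and miR-26a-5p. The intervals of miR-143-3p did not overlap between the libraries, a difference that is small beside the spread over all entries described further on.

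miR-143-5p, the passenger strand, had 20 reads in the control and 23 after STZ. These are 39.4 RPM (24.0 to 60.8) and 32.5 RPM (20.6 to 48.8), with a ratio of 0.827 (0.434 to 1.59). At this depth no difference in the passenger strand was detectable, and the interval spans changes of more than 1.5-fold in either direction.

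miR-145-5p, the strand to which most described functions of miR-145 belong, had 588 control reads and 728 STZ reads. Its level was 1157 RPM (1065 to 1254) in the control and 1030 RPM (956 to 1108) after STZ. The ratio was 0.890 with an interval of 0.797 to 0.994, which excluded 1 by little. The upper bound stood at 1.00 when the libraries were scaled by edgeR's TMM factors or by DESeq2's median of ratios, and the interval then included 1.

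miR-145-3p, the other strand of that hairpin, had 566 control reads and 806 STZ reads. Its level was 1114 RPM (1024 to 1209) in the control and 1140 RPM (1063 to 1222) after STZ. Its ratio of 1.02 (0.918 to 1.14) included 1, so a difference in this arm was not detectable at this depth. The mouse-named entry of miR-145a-5p was at 0 in both libraries, which by a limit of 3 reads allows up to 5.90 RPM in the control and 4.24 RPM after STZ; the exact Poisson interval used for the other levels reaches 7.26 and 5.22 RPM. All reads of this arm stood under the human name.

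**Figure D1:**
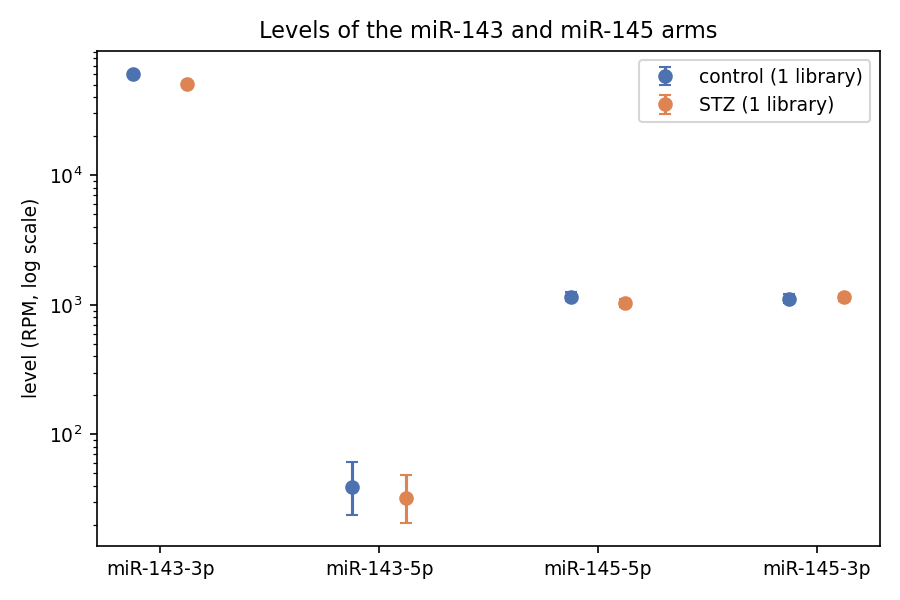
Levels of the 4 arms with reads, in RPM on a log axis, in the control and the STZ library (1 library each); bars are exact Poisson 95% intervals of the counts, smaller than the points where not seen. miR-143-3p lies near 60612 and 50890 RPM, both arms of miR-145 between 1030 and 1157 RPM, and miR-143-5p below 40 RPM.

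None of the 4 arms with reads was called, where a call needed a 2-fold difference on the scale of log2(RPM + 1) and a mean of at least 10 RPM. Their log2 ratios were -0.25 (miR-143-3p), -0.27 (miR-143-5p), -0.17 (miR-145-5p) and 0.03 (miR-145-3p), with a median of -0.21. For all 314 named entries at that level the median was -0.02 and 114 (36.3%) were 2-fold apart, 56 of them higher (17.8%) and 58 lower (18.5%). That share depended on depth: it was 61.2% of the 165 entries between 10 and 100 RPM, the range of miR-143-5p, and 0 of the 61 entries of at least 1000 RPM (0%), the range of the other 3 arms. Among those 61 entries the log2 ratios ran from -0.93 to 0.77. In 24 of them (39.3%) the interval of the ratio lay below 1, as for miR-143-3p and miR-145-5p, in 23 (37.7%) above it, and in 14 (23%) it included 1, as for miR-145-3p. A ratio lower than that of miR-143-3p was found in 12 of the 61. The lower value of miR-143-3p was thus of a kind shared by many abundant miRNAs of these libraries.

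**Figure D2:**
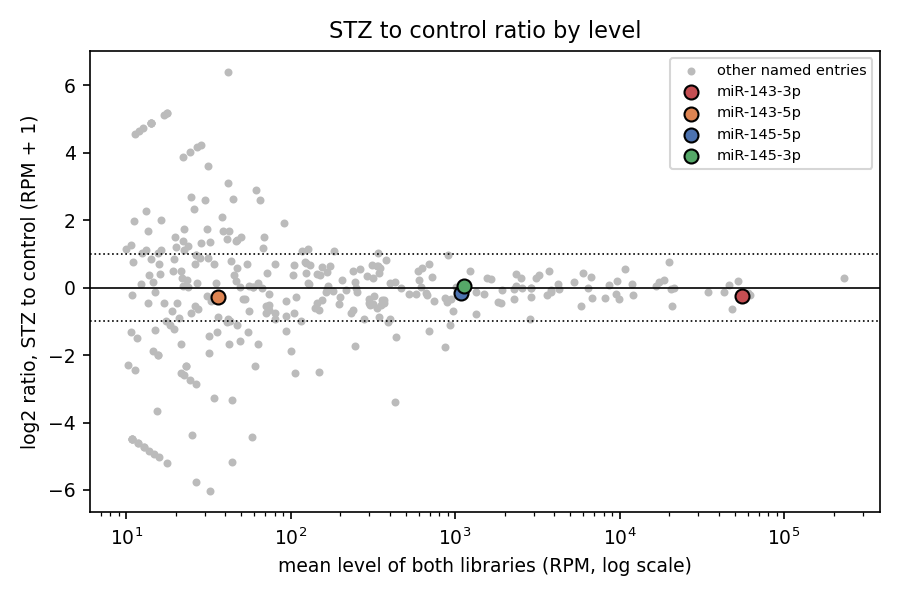
The log2 ratio of STZ to control, on log2(RPM + 1), against the mean level of both libraries (log axis) for the 314 named entries of at least 10 RPM; dotted lines mark 2-fold. The 4 arms of the cluster lie between -0.27 and 0.03, inside the dotted lines, while low entries spread widely.

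Together the arms made up 31976 of the 507003 named reads of the control, 6.31% (Wilson 95% interval 6.24 to 6.37), and 37529 of the 705284 of the STZ library, 5.32% (5.27 to 5.37). In RPM the summed cluster had a ratio of 0.844 (0.831 to 0.856). This sum is almost wholly miR-143-3p, which held 96.3% (96.1 to 96.5) of the cluster's control reads and 95.9% (95.6 to 96.0) of its STZ reads. Taken alone, miR-145 with both arms summed had 2271 RPM in the control and 2170 RPM after STZ, and its ratio of 0.956 (0.885 to 1.03) included 1. These libraries come from mitochondrial preparations, so a level is a share of the reads of that fraction. Fewer cells of a type, less RNA per cell and other reasons for a lower share cannot be told apart here.

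The ratio of miR-143 to miR-145 reads compares products of 1 transcript, and like any ratio within a library it is the same under any scaling between the libraries. Summed over arms, miR-143 exceeded miR-145 by 26.7-fold (exact interval 25.2 to 28.3) in the control and 23.5-fold (22.3 to 24.7) after STZ. Between the libraries this ratio differed by a factor of 0.879, an odds ratio with a conditional exact interval of 0.812 to 0.9503, so relatively less miR-143 was read in the STZ library. For the strands usually taken as guides, miR-143-3p to miR-145-5p, the ratio was 52.4 (48.3 to 56.9) and 49.4 (45.9 to 53.2), and the odds ratio of 0.943 (0.844 to 1.05) included 1. Against miR-145-3p, miR-143-3p stood at 54.4 (50.1 to 59.2) and 44.6 (41.6 to 47.9), with an odds ratio of 0.820 (0.734 to 0.915). Of the 4 arms, miR-145-3p was the one with a higher value in the STZ library, by a ratio of 1.02 whose interval included 1. The passenger miR-143-5p was scarcer than miR-145-5p in both libraries, at 0.0340 and 0.0316 reads per read of miR-145-5p.

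The pair was set beside 28 other pairs of clustered miRNAs with at least 100 reads each over both libraries. Its guide ratio was the third most uneven of all 29 pairs in the control and the second after STZ, while the median of the other pairs was 4.26-fold and 4.58-fold, larger over smaller. Some clustered miRNAs, such as miR-16 and let-7f, are also made at another locus. Loci were counted from RefSeq gene names, except for miR-145-5p, whose count was set to 1 by hand. Among the 12 pairs whose members were counted at 1 locus each, a restriction chosen after the data were seen, miR-143-3p to miR-145-5p was the most uneven in both libraries. The next was let-7e-5p to miR-125a-5p, with 194 and 8350 reads in the control and 296 and 11976 after STZ, so that miR-125a-5p exceeded let-7e-5p by 43.0-fold and 40.5-fold. miR-99b-5p of the same transcript lay between them, with 1316 and 1799 reads. Their mature mouse sequences from RefSeq (GRCm38.p6) are shown because this is the nearest match in the data to 1 transcript giving very unequal miRNAs. They lie on the plus strand at chr17:17830194-17830215 (miR-99b-5p), chr17:17830366-17830387 (let-7e-5p) and chr17:17830817-17830840 (miR-125a-5p). Capitals mark the seed, bases 2 to 8, which pairs with target messages, and the seeds of the 3 differ.
mmu-miR-99b-5p: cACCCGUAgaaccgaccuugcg
mmu-let-7e-5p: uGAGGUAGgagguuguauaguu
mmu-miR-125a-5p: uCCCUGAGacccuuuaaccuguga

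Uneven as it was, the guide ratio of miR-143 to miR-145 stayed close between the libraries. Its log2 change of -0.08 compares with a median size of 0.26 over the 28 other pairs, whose sizes ran from 0.0046 to 1.44, and 4 of them changed less. Of those 28 pairs, 1 (3.57%) changed by at least 2-fold, miR-181c-5p to miR-181d-5p (46 and 93 control reads, 109 and 81 STZ reads, odds ratio 2.72, 1.68 to 4.41). In 17 (60.7%) the interval excluded 1, which it did not for miR-143-3p to miR-145-5p. It did exclude 1 for the summed ratio of miR-143 to miR-145 (0.879) and for miR-143-3p to miR-145-3p (0.820), so the closeness holds for the guide ratio only. The bicistronic muscle pair miR-1-3p to miR-133a-3p went from 3.13 to 4.36, an odds ratio of 1.39 (1.37 to 1.42). These pairs share members in places and are a description, not replicates.

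**Figure D3:**
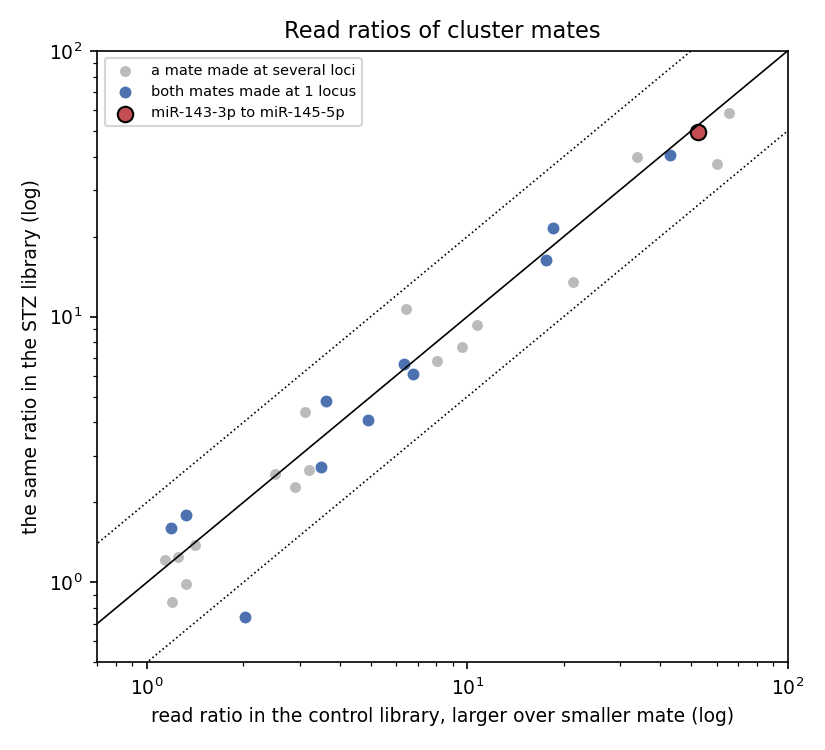
Read ratio of clustered miRNAs, larger over smaller as in the control library (log axis), against the same ratio in the STZ library (log axis) for 29 pairs; the solid line is equality and dotted lines mark 2-fold change. miR-143-3p to miR-145-5p sits at 52.4 and 49.4, at the uneven end and close to the line.

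The neighbouring hairpins differed in arm use, with 1 arm predominant in miR-143 and both nearly even in miR-145. From miR-143, 0.0649% of control reads (20 of 30822, Wilson interval 0.0420 to 0.1002) and 0.0639% of STZ reads (23 of 35995, 0.0426 to 0.0959) came from the 5p arm. Reads of the 3p arm exceeded those of the 5p arm by 1540-fold (997 to 2522) in the control and 1564-fold (1042 to 2468) after STZ, and the odds ratio of 1.02 (0.529 to 1.93) included 1. From miR-145, 51.0% of control reads (588 of 1154, 48.1 to 53.8) and 47.5% of STZ reads (728 of 1534, 44.97 to 49.96) came from the 5p arm. The 5p to 3p ratio of miR-145 was 1.04 (0.924 to 1.17) in the control and 0.903 (0.816 to 0.9997) after STZ. The interval after STZ excluded 1 by little. The more abundant arm thus differed in name between the libraries, 5p in the control and 3p after STZ, but the odds ratio of 0.869 (0.744 to 1.02) included 1.

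Arms were paired where their 5p and 3p names were otherwise the same. Entries such as miR-24-2-5p and miR-30c-2-3p, whose names number the hairpin, had no partner by this rule and were left out. Of the paired precursors, 51 reached a minimum of 20 reads per arm, summed over the libraries. Among these 51, miR-143 and miR-145 stood at opposite ends when ranked by the distance of the 5p share from equality, averaged over the libraries. miR-143 was the most one-sided, 49.94 percentage points from equality, and was followed by miR-27b with 49.89. Within single libraries others were more one-sided than miR-143: miR-27b, miR-148a and miR-181a in the control and miR-127 after STZ. Precursors whose minor arm had fewer reads were left out by this minimum, among them miR-1, whose 5p arm was at 0. miR-145 had the most even arms by this measure, 1.75 percentage points from equality, and was followed by miR-1981 (10 and 12 control reads, 17 and 17 STZ reads) and miR-1843a (11 and 9, 16 and 18). These rest on few reads, whereas miR-145 had 2688. After STZ alone, miR-1981 and miR-330 were more even than miR-145, and with reads pooled over both libraries miR-1843a was. The 49 other precursors had a median minor arm share of 9.66%, and 2 of them had both arms between 40 and 60% in both libraries. Of the 49, 17 (34.7%) had an arm ratio at least 2-fold different with an interval excluding 1, of which 13 favoured 5p after STZ and 4 favoured 3p. These include miR-148a and miR-127, each with an arm at 0 in 1 library. Also among them are miR-181a and miR-27b, each with a minor arm of 1 read in the control. The minimum sums both libraries, so such an arm can reach it through 1 library alone, and the 34.7% depends on it. Neither miR-143 nor miR-145 met the rule of a 2-fold arm difference with an interval excluding 1. With a minimum of 100 reads on each arm, 0 of the 18 other precursors measured met it. miR-145 reached that minimum and miR-143 did not.

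A deeply read precursor with fairly even arms was let-7d, with 1033 reads of the 5p and 2022 of the 3p arm in the control and 1894 and 2595 after STZ. Its 5p share went from 33.8% to 42.2%, an odds ratio of 1.43 (1.30 to 1.57), a clearer difference than in miR-145. Its arms, from RefSeq (GRCm38.p6), lie on the minus strand at chr13:48536078-48536099 (5p) and chr13:48536024-48536045 (3p). They are printed because both arms of this hairpin were deeply read, and the seeds, in capitals, differ.
mmu-let-7d-5p: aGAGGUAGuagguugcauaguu
mmu-let-7d-3p: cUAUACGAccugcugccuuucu

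**Figure D4:**
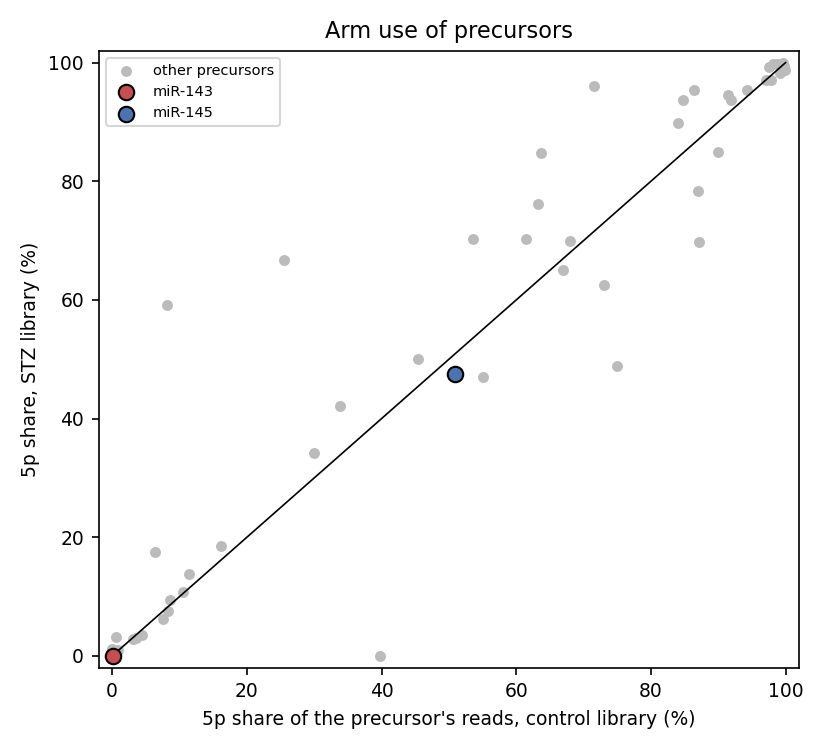
Share of a precursor's reads from its 5p arm (%), control library against STZ library, for the 51 paired precursors above the read minimum. The line is equality. miR-143 sits in the corner at 0.0649% and 0.0639%, and miR-145 in the centre at 51.0% and 47.5%.

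Other miRNAs known to act in smooth muscle cells lay on both sides of equality. Of 9 miRNAs linked to the contractile state, all were measured, 1 was at least 2-fold higher in the STZ library and 0 lower, beside 17.8% and 18.5% of all 314 entries, and the median log2 ratio was -0.21. The higher one was miR-18a-5p, with 5 and 15 reads and a ratio of 2.16 (0.745 to 7.59). The interval lay above 1 for miR-1-3p (1.21) and let-7d-5p (1.32) and below it for 5 members, namely miR-133a-3p, miR-15b-5p (0.852), miR-16-5p (0.679), miR-195-5p (0.742) and miR-204-5p, the lowest, with 269 and 198 reads (0.529, 0.438 to 0.638). For miR-10a-5p (0.951, 0.876 to 1.03) it included 1. Of 8 miRNAs linked to the proliferative or synthetic state, 0 were higher and 1 lower, again beside 17.8% and 18.5% of all entries, with a median of -0.27. Neither list held more 2-fold differences than these shares give. The lower one was miR-146a-5p, which restrains inflammatory signalling, with 328 and 165 reads (0.362, 0.298 to 0.437). miR-221-3p and miR-222-3p, which promote smooth muscle growth by repressing the cell cycle inhibitor p27, stood at 0.790 (0.702 to 0.889) and 0.597 (0.467 to 0.764). miR-21-5p, raised in injured vessels and in fibroblasts, stood at 0.872 (0.841 to 0.905), and miR-155-5p at 1.61 (1.15 to 2.28) under its human name. The mouse-named entry of miR-155-5p went the other way, with 33 and 21 reads (0.458, 0.252 to 0.815), and the sum of both entries had a ratio of 1.16 (0.873 to 1.54). miR-24-3p stood at 0.686 (0.669 to 0.704), miR-26a-5p at 1.05 (1.04 to 1.07) and miR-31-5p at 1.34 (0.975 to 1.84). Most of these miRNAs are made in other cells of the heart as well, and miR-1-3p and miR-133a-3p also belong to the cardiomyocyte list.

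Markers of the other cell types that a heart preparation can hold moved by different amounts beside the cluster, and their part in its lower level was not tested. The 5 cardiomyocyte miRNAs together went from 28.1% to 31.6% of named reads, a sum in which miR-1-3p had most of the reads. Their own ratios went both ways. miR-1-3p (1.21) and miR-499-5p (1.07, 1.02 to 1.14) were higher and miR-208b-3p had 0 and 59 reads, while miR-133a-3p (0.866, 0.854 to 0.879) and miR-208a-3p (0.498, 0.345 to 0.713) were lower. The 2 arms of endothelial miR-126 went from 6.63% to 4.36%, with ratios of 0.639 (0.628 to 0.650) for miR-126-3p and 0.804 (0.769 to 0.840) for miR-126-5p. The 3 red cell miRNAs went from 1.29% to 0.934%, the 4 leukocyte miRNAs from 0.268% to 0.204%, and the 3 fibroblast miRNAs from 0.360% to 0.374%. Liver miR-122-5p went from 787 to 73.6 RPM. Relative to miR-1-3p, miR-143-3p had 0.290 reads per read in the control and 0.201 after STZ, an odds ratio of 0.696 (0.684 to 0.708). Relative to miR-126-3p it had 1.03 and 1.36, an odds ratio of 1.31 (1.28 to 1.34), and relative to miR-199a-3p of fibroblasts 20.9 and 17.7, an odds ratio of 0.847 (0.790 to 0.908). Relative to leukocyte miR-150-5p it had 28.9 and 32.5, an odds ratio of 1.12 (1.03 to 1.22), and relative to red cell miR-486-5p 6.70 and 6.94, an odds ratio of 1.04 (0.993 to 1.08). So miR-143-3p was lower in the STZ library against miR-1-3p and miR-199a-3p, higher against miR-126-3p and miR-150-5p, and not detectably different against miR-486-5p. With both arms summed, miR-145 was likewise lower against miR-1-3p and higher against miR-126-3p and miR-150-5p. Against miR-486-5p, however, miR-145 was higher, with an odds ratio of 1.18 (1.08 to 1.29). Against miR-199a-3p its odds ratio of 0.964 (0.870 to 1.07) included 1. The markers used here are the most abundant members of their lists and do not stand for every member. The STZ to control ratio of 0.840 for miR-143-3p lies close to the 0.866 of cardiomyocyte miR-133a-3p. It lies above the 0.498 of cardiomyocyte miR-208a-3p. Red cell miR-451a stood at 0.525 (0.490 to 0.563) and miR-144-3p at 0.539 (0.276 to 1.04), beside 0.810 for miR-486-5p. Leukocyte miR-150-5p stood at 0.749, miR-223-3p at 0.692, miR-142-3p at 0.479 (0.170 to 1.28) and miR-142-5p at 1.29 (0.947 to 1.76). Fibroblast miR-199a-5p stood at 1.17 and miR-214-3p at 1.56, beside 0.991 for miR-199a-3p. The entry miR-199b-3p, outside the list, had almost the same reads as miR-199a-3p. It had 1470 beside 1471 in the control and 2022 beside 2028 after STZ. Whether both entries hold the same reads was not tested. Without the cardiomyocyte miRNAs in the denominator the cluster's share was 8.77% in the control and 7.78% after STZ, again lower there.

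**Figure D5:**
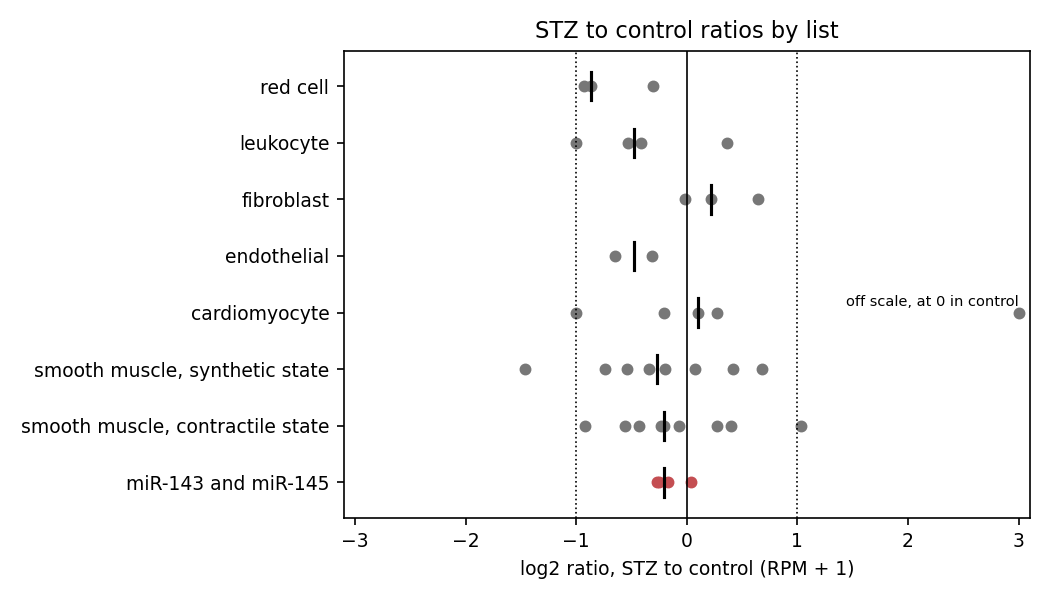
Log2 ratio of STZ to control, on log2(RPM + 1), for the 4 arms of the cluster and the members of the cell type and smooth muscle lists (points), with the median of each list (bar) and 2-fold limits (dotted). The cluster spans -0.27 to 0.03, the endothelial, leukocyte and red cell medians lie lower, and miR-208b-3p, at 0 in the control, is drawn at the edge.

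Among named entries with a mean of at least 1000 RPM, the log2 ratio closest to that of miR-143-3p (-0.25) was found for miR-149-5p (-0.27), miR-151a-5p (-0.21) and miR-23b-3p (-0.21). Those closest to miR-145-5p (-0.17) were miR-30a-5p (-0.17), miR-21-5p (-0.20) and let-7b-5p (-0.20). Those closest to miR-145-3p (0.03) were miR-25-3p (0.03), miR-100-5p (0.04) and miR-125a-5p (0.04). This likeness is the distance of log2 ratios over 2 libraries. By level, miR-145-3p and miR-145-5p were neighbours. Next above them were miR-128-3p at 1031 and 1442 RPM, miR-335-5p and miR-186-5p. Next below were miR-423-3p at 1035 and 1102 RPM, miR-25-3p and the mouse-named miR-322-3p. In the control the Poisson intervals of both miR-145 arms contained the other's level, and in the STZ library the interval of miR-145-5p (956 to 1108 RPM) did not contain the 1140 RPM of miR-145-3p.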

How the data were processed

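The deposited files give, for each of the 2 libraries, a signal that the authors scaled to a common total over the listed small RNAs (RPM). A cell of the control file calls it TPM, but values are whole multiples of 1 read with no length term. Whole reads were recovered from that step for 100% of deposited values, to within 0.001 of a read. An unnamed subtotal row, equal to 96.5% and 96.6% of the library totals, and 167 unnamed loci were left out of named counts. Per the labels' protocols, adapters were ligated to total RNA, followed by PCR and gel purification. The submitters' processing notes name the build GRCm39. Aligner and miRNA reference: not given in the sources used here.

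Calls used a 2-fold difference of log2(RPM + 1) at a mean of at least 10 RPM, which understates folds of low miRNAs. Exact intervals came from the recovered reads, human-named and mouse-named entries were summed for pairs and arms, and for lists the highest entry of a miRNA was used. No count model could be fitted with 1 library per group, so no p-value is given. The rule for named miRNAs covers all arms of the cluster and the list members. It also covers the 3 entries next in level on each side and the 3 closest in ratio. Other pairs and precursors were named after their values were seen. Members and lists were chosen with earlier results of these data known. The ratio and odds ratio scripts were tested on simulated data. Python 3.11.15, scipy 1.17.1, R 4.3.3, edgeR 4.0.16 (TMM) and DESeq2 1.42.0 (median of ratios) were used.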

Additional observations from a re-analysis of the deposited data

How the results depend on the processing

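No paired analysis was possible because there was a single library per group, so that no library could be left out either. Level ratios of the 4 arms stayed within their counting intervals under TMM, the median of ratios, totals without the 10 most abundant, other pseudocounts and summed entries. Summing entries or taking the highest entry of each arm could change no ratio of the cluster. The only second entry of an arm, mmu-miR-145a-5p, had 0 reads in both libraries. The cluster's share of 6.31% and 5.32% became 0.676% and 0.641% without the 10 most abundant, which removes miR-143-3p itself, 8.77% and 7.78% without the cardiomyocyte miRNAs, and 6.75% and 5.56% without the endothelial ones (added after the data were seen). The summed ratio of miR-143 to miR-145 became 52.4 and 49.4 for guide strands and 54.4 and 44.6 for 3p arms (added after the data were seen), since each counts 1 arm of miR-145. Of other cluster pairs, 0 of 13 changed 2-fold at a minimum of 1000 reads and 2 of 33 at 20 reads. Of other precursors, 0 of 18 changed arms at 100 reads. The 56 higher and 58 lower of 314 entries became 143 and 123 of the 481 with reads when there was no minimum. At a minimum of 100 RPM, which fewer entries reach, they were 4 and 9. Recovered reads, with at least 20 reads and an interval excluding 1 (added after the data were seen), gave 42 and 37. Depth limits miR-143-5p most, at 20 and 23 reads.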
